A study of Mus musculus with 6 samples.

Results

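Of 7 named genes of the oligodendrocyte lineage, 5 (Pdgfra, Ugt8a, Cnp, Mbp and Cldn11) appeared in at least 1 of the study's 4 gene tables and were scored, out of 18778 genes in those tables. The other 2, Cspg4 and Gpr17, were in no table and are not analysed here. The genes were chosen by name for their role, with earlier results of these data known. A gene enters a table only with a called peak assigned to it, so the scored members and the genes they are set beside both lean towards marked genes. Cldn11 and Mbp were each in 1 table alone, that of neuron H3K27me3. A neuronal H3K27me3 peak assigned to them was thus a condition of their being scored. The study compared histone marks in mouse neural stem cells (NSCs) with those in neurons made from the same cells. NSCs of the C57BL/6 strain had been derived from embryonic stem cells, were grown with the growth factors FGF2 and EGF at passages 25 to 30, and were taken at day 0 and labelled negative for the RedStar reporter. Neurons were taken at day 11 of differentiation, first with FGF2 and the N2 and B27 supplements and then in N2B27 medium. They were sorted for RedStar, a red fluorescent protein under the promoter of Tau. Which cells the sort left out was not tested. Each cell type had 1 library for H3K4me3, 1 for H3K27me3 and 1 input. There were no replicates, so every difference below is between 2 libraries, with no test and no replicate check.

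Oligodendrocytes wrap axons in myelin, a membrane stack rich in galactolipids and in a few dedicated proteins. They arise from dividing progenitors that respond to platelet-derived growth factor through the receptor Pdgfra, and neural stem cells can give rise to them as well as to neurons and astrocytes. H3K4me3 lies at active or poised promoters, whereas H3K27me3 is laid down by a Polycomb complex and is known for covering genes of other lineages. Neither mark measures RNA.

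The promoters of the members differ in how much of the dinucleotide CG they hold, and CG-rich promoters are known for carrying H3K4me3. The 250 bases before the RefSeq start are shown for the 4 members in the RefSeq promoter table, 5′ to 3′ on the gene's strand, with each CG in capitals. On GRCm38.p6 they lie at chr3:125938653-125938902 (minus strand, Ugt8a), chr3:31149670-31149919 (plus, Cldn11), chr11:100574689-100574938 (plus, Cnp) and chr5:75152001-75152250 (plus, Pdgfra). These positions belong to another build than the peaks, which are on mm9, and were not set against them.

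Ugt8a: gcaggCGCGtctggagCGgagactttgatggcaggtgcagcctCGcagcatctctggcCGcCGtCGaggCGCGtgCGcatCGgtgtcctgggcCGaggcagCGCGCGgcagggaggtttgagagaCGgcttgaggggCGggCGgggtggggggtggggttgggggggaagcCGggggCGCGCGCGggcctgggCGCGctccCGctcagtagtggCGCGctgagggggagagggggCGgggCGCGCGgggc
Cldn11: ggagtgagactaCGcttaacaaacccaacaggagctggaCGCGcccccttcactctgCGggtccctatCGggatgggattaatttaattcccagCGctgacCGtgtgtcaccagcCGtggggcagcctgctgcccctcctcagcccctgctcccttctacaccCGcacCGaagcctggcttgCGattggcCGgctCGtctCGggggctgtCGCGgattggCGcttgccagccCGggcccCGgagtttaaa
Cnp: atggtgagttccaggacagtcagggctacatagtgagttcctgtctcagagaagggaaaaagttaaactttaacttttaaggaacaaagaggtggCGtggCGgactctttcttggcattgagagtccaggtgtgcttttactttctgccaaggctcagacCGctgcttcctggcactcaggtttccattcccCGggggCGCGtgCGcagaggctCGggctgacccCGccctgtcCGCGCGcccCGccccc
Pdgfra: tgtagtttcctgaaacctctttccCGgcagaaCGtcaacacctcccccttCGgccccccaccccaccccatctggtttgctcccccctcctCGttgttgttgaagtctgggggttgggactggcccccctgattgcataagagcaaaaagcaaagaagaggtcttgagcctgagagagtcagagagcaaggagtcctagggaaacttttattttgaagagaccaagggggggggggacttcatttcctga

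The Ugt8a stretch held 32 CG, and 4.58% of 32851 RefSeq promoter stretches of this length held as many. Cldn11 held 19 (19.7% held as many), Cnp 13 (31.5%) and Pdgfra 4 (62.2%), against a median of 6 over all stretches. CG reads the same on both strands, so 1 strand was counted. For Pdgfra the RefSeq gene begins 929 bases upstream of the start used for this stretch, so the gene has a further start that it does not cover.

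A gene was scored as marked where any listed peak lay within 1000 bp of its start site, taken as the 5′ end of the gene in the tables. H3K4me3 marked 1 of the 5 members in NSCs, Cnp, and 3 in neurons, Cnp, Ugt8a and Pdgfra. Over all genes the shares were 70.4% in NSCs and 61.7% in neurons. H3K27me3 marked 2 members in each cell type, Mbp and Ugt8a in NSCs and Cldn11 and Ugt8a in neurons, against 19.2% and 17.9% of all genes. The members thus had 5 different patterns over the 4 libraries, 1 each. H3K4me3 was called in neurons alone at 2 members, Ugt8a and Pdgfra, and at 0.831% of all genes, and in NSCs alone at 0 members and 9.55% of all genes. H3K27me3 was called in neurons alone at 1 member, Cldn11, and at 3.56% of all genes, and in NSCs alone at 1 member, Mbp, and at 4.85% of all genes. Both marks stood at the start site of 0 members in NSCs (8.53% of all genes) and of 1 in neurons, Ugt8a (4.59%). The calls closest to the limit were both at Pdgfra, with a neuronal peak 839 bp from the start site and the nearest NSC peak at 3439 bp.

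**Figure D1:**
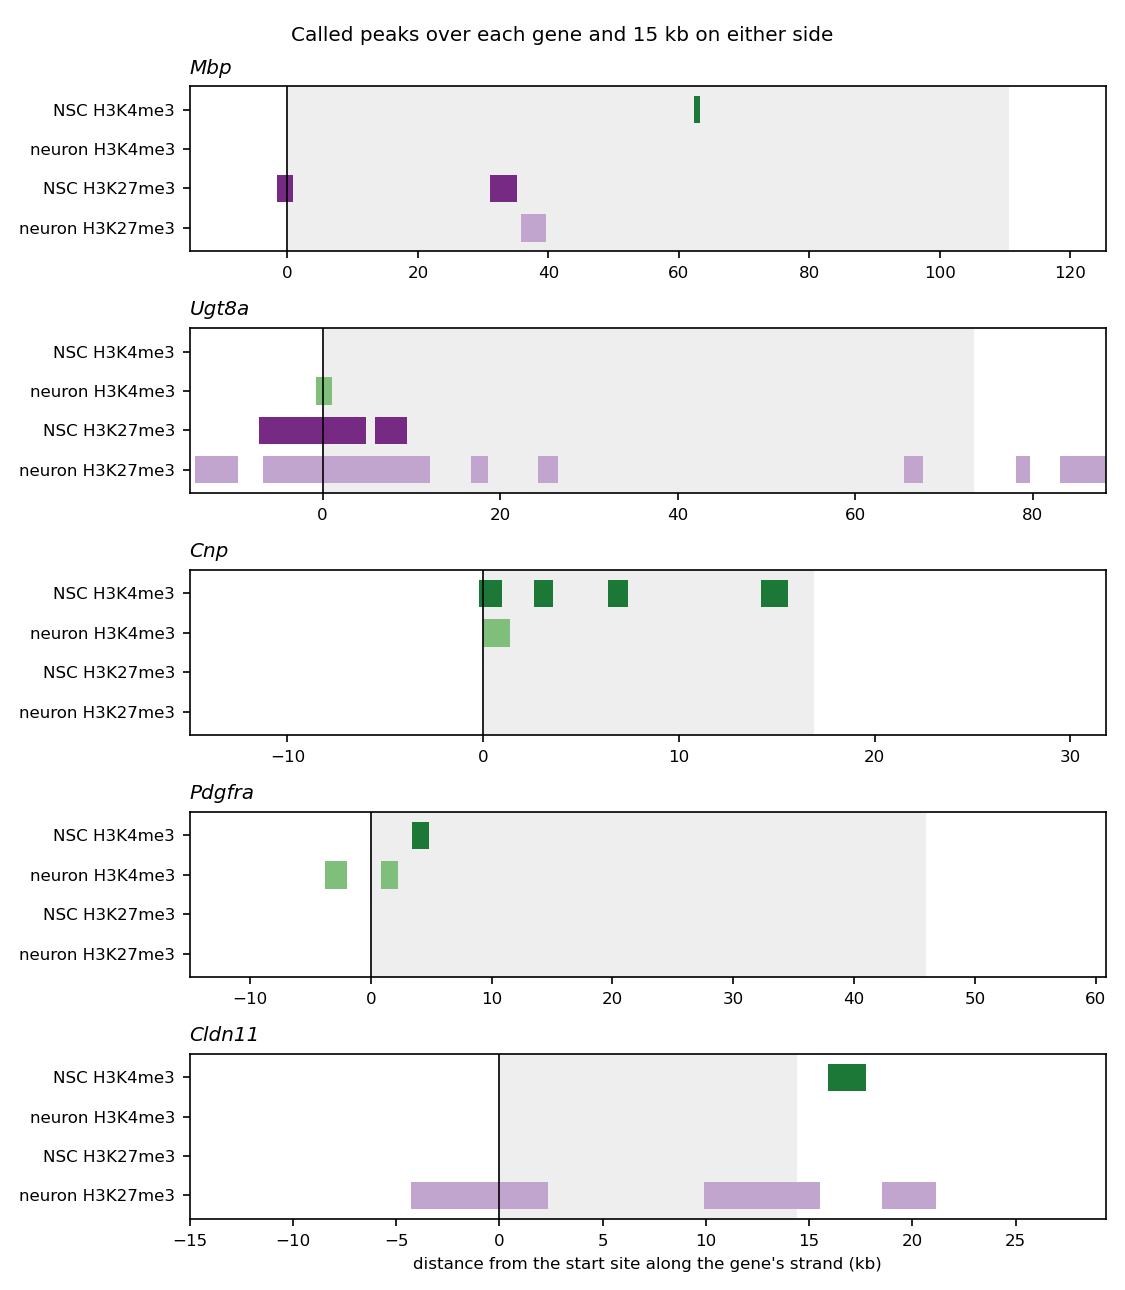
Called peaks over each scored gene and 15 kb on either side, drawn by distance from the start site in kb along the gene's strand, with the gene body shaded and 1 row for each library. Peaks of NSC H3K27me3 and neuron H3K27me3 overlap at the Ugt8a start site, whereas Cldn11 has H3K27me3 peaks in neurons alone, and the 2 libraries have separate peaks within Mbp.

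The libraries differed in ways that bear on these calls. The authors' lists held 30416 and 14846 H3K4me3 peaks in NSCs and neurons and 26539 and 36053 H3K27me3 peaks, with 983266 to 3623654 immunoprecipitated reads inside peaks. The neuron H3K4me3 library was the least dense of its pair, with a median of 42.3 reads per kb in peaks at start sites against 97.3 in NSCs. Of the neural stem cell marker genes, 6 of 8 scored had H3K4me3 in NSCs and 8 of 8 had it in sorted neurons. Neuronal markers had it at 4 and 5 of 9, with H3K27me3 at 4 and 2. Astrocyte markers had H3K4me3 at 5 and 4 of 7, and H3K27me3 at 0 in NSCs and 2 in neurons, Aldh1l1 and Gja1. Microglial and endothelial or mural markers had H3K4me3 in neurons at 0 of 2 and 0 of 5, and H3K27me3 at 0 and 2. In NSCs they had H3K4me3 at 0 and 1, and H3K27me3 at 1 and 4. No pluripotency marker of the 4 listed was in any table.

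Pdgfra encodes the receptor tyrosine kinase of oligodendrocyte progenitors for platelet-derived growth factor (ENSMUSG00000029231, mm9 chromosome 5 from 75548361 to 75594218, plus strand). Its H3K4me3 peaks lay on either side of the start site and at different places in the 2 cell types, with no peak over the start site itself in either. The NSC peak, inside the gene 3439 to 4838 bp past the start, held 57 immunoprecipitated reads over 12 input reads (95% Poisson interval of the former 43.2 to 73.9). In neurons, a peak 839 to 2238 bp past the start held 34 reads over 18, a fold over input of 1.88 (95% interval 1.03 to 3.53), which was above 2.72% of the folds in its list. This is the peak that scored the gene as marked, so the call rests on one of the weakest peaks listed. It was lost with a window of 500 bp, with a fold of at least 2, by the authors' gene tables, and at a false discovery rate (FDR) under 1e-20. With a window of 5000 bp the NSC peak was called as well, so that the gene was no longer marked in neurons alone.

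Another neuronal peak at Pdgfra lay upstream, at -3761 to -1962 bp from the start, on chromosome 5 from 75544600 to 75546399. It held 43 reads over 4 input reads, a fold of 10.7 (95% interval 3.88 to 41.0), above 97.0% of the neuronal list. The nearest NSC H3K4me3 peak to it was 5401 bp away, the one inside the gene. The upstream peak is thus among the stronger of the neuronal list by fold, on few input reads. H3K27me3 was far from Pdgfra in both cell types, with the nearest peak 69762 bp from the start site in NSCs and 62362 bp in neurons.

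Ugt8a encodes the galactosyltransferase that makes galactosylceramide, the main glycolipid of myelin (ENSMUSG00000032854, mm9 chromosome 3 from 125568190 to 125641468, minus strand). It was the one member with both marks in a cell type and the one with H3K27me3 in both. The neuronal H3K4me3 peak, from 125640400 to 125642199, ran from -731 to 1068 bp around the start site and held 43 reads (31.1 to 57.9) over 16 input reads. Its density of 23.9 reads per kb was above 1.97% of the 11580 start sites with a neuronal H3K4me3 peak. NSCs had no H3K4me3 peak over the gene or within 15 kb, and the nearest lay 533869 bp from the start site. NSC H3K4me3 peaks of the same width numbered 2472 and held at least 29 reads, with a median of 59, on a scale the libraries do not share. How many NSC reads lie at this place outside called peaks is not in the files used here. The neuronal call was lost at an FDR under 1e-20.

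The CG-rich start of Ugt8a shown above is of a kind that mostly carries H3K4me3. Of 612 genes whose promoter stretch held 29 to 35 CG, 95.8% had H3K4me3 in NSCs and 90.7% in neurons, and 16.0% and 13.6% had H3K27me3. These shares are over genes with a single RefSeq stretch. For Cldn11, whose start had no H3K4me3 in either cell type, 94.2% and 85.3% of 2087 genes with 16 to 22 CG had it. For Pdgfra, with few CG, the shares were 43.5% and 33.7% of 1544 genes, and for Cnp 89.3% and 79.9% of 2060 genes. Ugt8a and Cldn11 therefore stood with the minority of genes of like CG content that lacked NSC H3K4me3.

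H3K27me3 at the Ugt8a start site formed a domain that was 12000 bp wide in NSCs and 18800 bp wide in neurons, with 11600 bp in common. The NSC domain held 237 reads (208 to 269) over 110 input reads, and the neuronal one 419 (380 to 461) over 162. The density was alike, 19.8 and 22.3 reads per kb, a ratio of 1.13 where the median over 2687 genes marked in both cell types was 1.03 (from 0.718 at the 10th to 1.41 at the 90th percentile). The domain was wider in neurons by 1.57 times, whereas the median gene's peak was narrower, at 0.662, and 6.66% of those genes had a larger ratio. The neuronal H3K4me3 peak lay wholly inside the neuronal H3K27me3 domain. A cell population cannot show whether both marks were on the same chromosomes. Around the gene, neurons had 6 further H3K27me3 peaks of 1600 to 5200 bp and NSCs had 1.

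**Figure D2:**
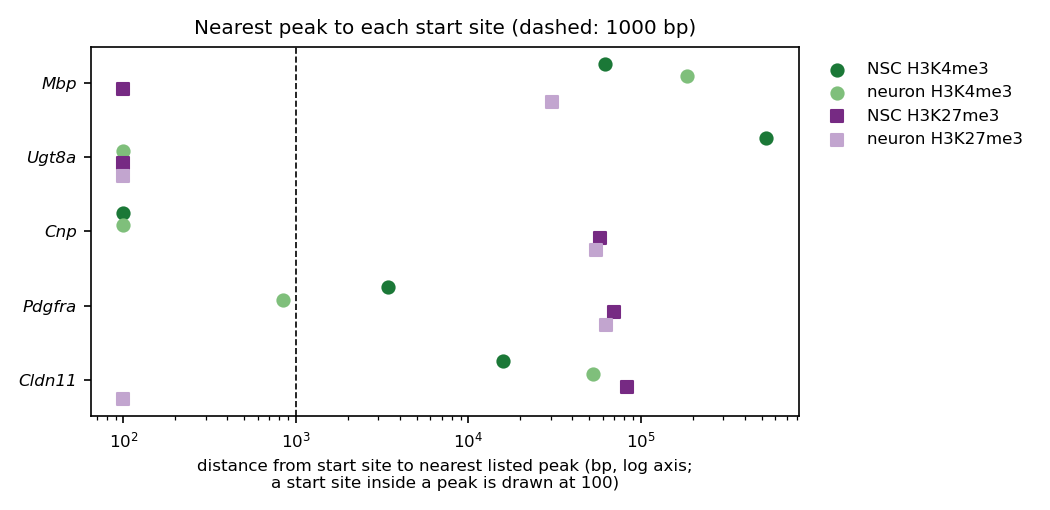
Distance in bp from each start site to the nearest peak of each of the 4 libraries on a log axis, with start sites inside a peak drawn at 100 and the 1000 bp limit dashed. Each gene has its own set of points left of the line, and for Ugt8a the NSC H3K4me3 point is the farthest of all, at 533869 bp.

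Cnp encodes the cyclic nucleotide phosphodiesterase of non-compact myelin, an early protein of the lineage (ENSMUSG00000006782, mm9 chromosome 11 from 100436218 to 100453043, plus strand). It had an H3K4me3 peak over its start site in both cell types and no H3K27me3 peak within 15 kb of the gene in either. The NSC peak, from 100436000 to 100437199, held 147 reads (124 to 173) over 11 input reads, a fold of 13.7 (7.43 to 28) that was above 94.7% of the list. The neuronal peak, from 100436200 to 100437599, held 36 reads (25.2 to 49.8) over 16 input reads, a fold of 2.24 (1.21 to 4.31), above 10.4% of its list. The gene thus went with the stronger peaks in NSCs and with the weaker ones in neurons. It kept its neuronal call with all peaks and lost it at an FDR under 1e-20, where 26.6% of all genes had H3K4me3 in NSCs alone.

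Reads per kb at Cnp were 122 in NSCs and 25.7 in neurons, a ratio of 0.21 (95% interval from counting alone 0.142 to 0.304). The median ratio over the 11424 genes marked in both cell types was 0.419, and 21 genes (0.184%) had a lower one. Among the 2970 genes within 10% of its NSC density, the median was 0.378 and 6 were lower. With reads over input reads the ratio was 0.168 against a median of 0.499, and 0.525% of genes were lower. The 2 libraries do not share a scale, so only the place among other genes can be read from these ratios. That place depends on the peak bounds: with reads per peak, the ratio was 0.245 against a median of 0.306 and 23.8% of genes were lower, since the neuronal peak at Cnp was 1.17 times as wide as the NSC one where the median gene's was 0.733 times.

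**Figure D3:**
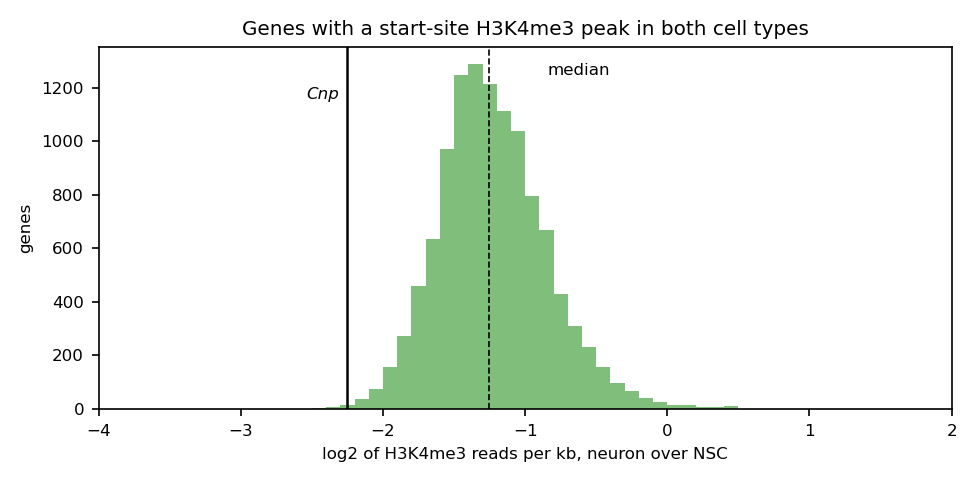
Number of genes by the log2 of neuron over NSC H3K4me3 reads per kb, for the 11424 genes with a start-site peak in both cell types, with the median dashed and Cnp as a solid line. Cnp, at a ratio of 0.21, lies near the low end, with 21 genes below it.

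NSCs had 3 further H3K4me3 peaks inside Cnp and neurons had none. They began 2582, 6382 and 14182 bp past the start site, were 1000 to 1400 bp wide and held 30, 31 and 39 reads over 11 to 13 input reads. These are small peaks, with folds of 2.44 to 3.63 that were above 20.6% to 45.4% of the list. The gene body overlaps that of Dnajc7, a chaperone gene on the other strand whose start site lies 45264 bp away. Ttc25, on the same strand, ends 2336 bp before Cnp. No other gene of the tables had its start site in the Cnp peak.

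Mbp encodes myelin basic protein of compact myelin (ENSMUSG00000041607, mm9 chromosome 18 from 82644538 to 82755029, plus strand). The tables give the gene 1 start and name no transcript. By background knowledge this start is that of the long golli transcripts, and the classic myelin transcripts start far inside the gene. At the listed start NSCs had a narrow H3K27me3 peak of 2400 bp, from 82643000 to 82645399, with 58 reads (44.0 to 75) over 21 input reads, a fold of 3.86 (2.31 to 6.70) above 89.9% of the list. This call was lost at an FDR under 1e-20 and by the gene tables. The nearest neuronal H3K27me3 peak lay 30339 bp from the start site, on its upstream side. The neuronal list holds 2183 peaks of the same width, with a lowest count of 30 reads and a median of 45, on its own scale. Neuronal reads outside called peaks are not in the files used here.

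Deeper inside Mbp each cell type had 1 H3K27me3 peak, and these lay 601 bp apart without overlap. The NSC peak ran from 31062 to 35261 bp past the start with 58 reads over 38, and the neuronal one from 35862 to 39661 bp with 71 reads over 18. The fold was 4.14 (95% interval 2.44 to 7.38) in neurons and 2.13 (1.39 to 3.30) in NSCs, each against its own input, and the intervals overlap. H3K4me3 over Mbp amounted to 1 NSC peak of 1000 bp, which began 62262 bp past the start and held 27 reads over 11. Neurons had no H3K4me3 peak over the gene, and the nearest was 184539 bp from the start site.

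Cldn11 encodes claudin 11, the tight junction protein of myelin sheaths (ENSMUSG00000037625, mm9 chromosome 3 from 31048868 to 31063246, plus strand). In neurons it had H3K27me3 over its start site, in a peak of 6600 bp from 31044600 to 31051199 with 136 reads (114 to 161) over 61 input reads, a fold of 2.34 (1.72 to 3.22). Further neuronal H3K27me3 peaks held 127 reads over 45 across the gene's 3′ end and 57 over 25 beyond it. NSCs had no H3K27me3 peak within 15 kb of the gene, and the nearest was 82732 bp from the start site. NSC H3K27me3 peaks of 6600 bp numbered 443, with a lowest count of 66 reads and a median of 99. The start-site call in neurons was lost by the gene tables and at an FDR under 1e-20, while the peak across the 3′ end passed that limit with an FDR of 5.83e-25. H3K4me3 was not called at the start site, and the one peak in the region lay in NSCs, 15932 to 17731 bp past the start and beyond the gene, with 48 reads over 27.

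**Figure D4:**
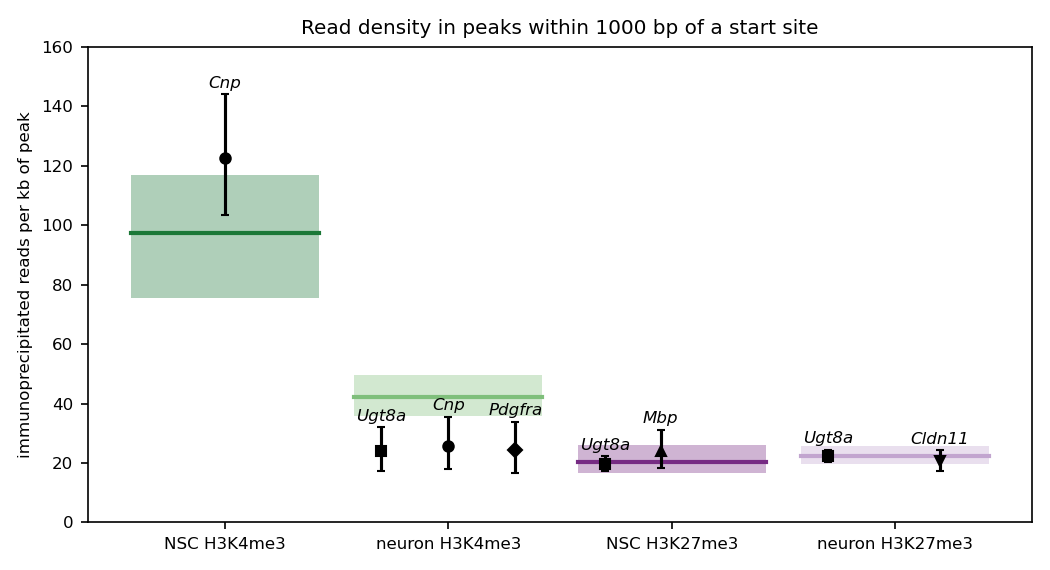
Immunoprecipitated reads per kb in the start-site peaks of the members (points, with exact 95% Poisson intervals) beside all start-site peaks of the same library (bars from the 25th to the 75th percentile, line at the median). In neuron H3K4me3 the 3 members lie below the bar, at 23.9 to 25.7 reads per kb, whereas Cnp in NSCs lies above the median and the H3K27me3 points lie in or near their bars.

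In neuron H3K4me3 the start-site peaks of Ugt8a, Pdgfra and Cnp were all thin. Their densities, 23.9, 24.3 and 25.7 reads per kb, were above 1.97%, 2.38% and 3.82% of the 11580 marked start sites. In NSCs the Cnp peak was above 80.5% of 13218. H3K27me3 densities were ordinary for their libraries, with Mbp above 69.1% and Ugt8a above 45.8% of 3598 NSC start sites, and Ugt8a above 50.9% and Cldn11 above 34.2% of 3355 neuronal ones.

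Peaks were then summed over each gene and 15 kb on either side. H3K27me3 covered 22.2 kb of the 5 regions in NSCs and 55.4 kb in neurons, in 4 and 11 peaks. Over all genes the mean covered share was 11.4% in NSCs and 9.26% in neurons. Of the neuronal sum, 14.8 kb lay at Cldn11 and 3.8 kb at Mbp, which a neuronal H3K27me3 peak had brought into the scored set. The difference between the sums came from Ugt8a, where the covered share was 15.1% in NSCs and 35.6% in neurons, and from Cldn11, where it was 0% and 33.3%. A difference as high as the 20.5 percentage points of Ugt8a was found at 1.51% of all genes, and one as high as the 33.3 points of Cldn11 at 0.628%. At an FDR under 1e-20 the differences were 6.58 and 12.6 points. Cldn11 was scored only through a neuronal H3K27me3 peak, so its place among all genes is not independent of how it was chosen. Mbp went from 4.7% to 2.7%, and Cnp and Pdgfra had none in either. The median of the members was 0% in NSCs and 2.7% in neurons, the latter being the value of Mbp, and the median of all genes was 0% in both. Mbp, like Cldn11, was scored only through a neuronal H3K27me3 peak. The neuronal median and sum are therefore not independent of how the members were chosen.

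H3K4me3 covered 8.8 kb of the regions in NSCs and 6.4 kb in neurons, in 7 and 4 peaks. The median covered share of the members was 1.85% in NSCs and 1.74% in neurons, below the medians of all genes, 5.39% and 2.78%. The median difference over all genes, neuron minus NSC, was -1.98 percentage points, and 2 members had a positive one. Ugt8a went from 0% to 1.74%, an increase found at 3.33% of genes, and Pdgfra from 1.85% to 4.22%, found at 2.43%. Cnp went from 9.82% to 2.99%, and 15% of genes had a difference as low.

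Genes of like pattern were counted over all 4 libraries. The pattern of Cnp, H3K4me3 alone in both cell types, was that of 10301 genes (54.9%). That of Mbp, NSC H3K27me3 alone, was shared by 487 (2.59%), and that of Cldn11, neuronal H3K27me3 alone, by 337 (1.79%). Pdgfra and Ugt8a had the rarest. Neuronal H3K4me3 alone was seen at 73 genes (0.389%), and neuronal H3K4me3 with H3K27me3 in both cell types at 62 (0.33%), each count including the member.

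Other genes of the lineage were scored from 4 lists by role, 52 symbols of which 35 were in a table. Many defining genes were in none and are not analysed here, among them Sox10, Myrf, Mog and Mag. Of the 35, H3K4me3 marked 26 in NSCs and 23 in neurons, beside 70.4% and 61.7% of all genes. H3K27me3 marked 14 and 11 of the 35, beside 19.2% and 17.9% of all genes. H3K4me3 was called in NSCs alone at 4 and in neurons alone at 1, beside 9.55% and 0.831% of all genes. For H3K27me3 these counts were 5 and 2, beside 4.85% and 3.56%. Both marks stood at 10 of the 35 in NSCs and 6 in neurons, beside 8.53% and 4.59%. Among lineage transcription factors all 8 scored had H3K4me3 in NSCs and 7 in neurons. Olig1, Olig2 and Tcf7l2 were among those with the pattern of Cnp. The Olig1 peak held 572 reads over 30 in NSCs and 232 over 51 in neurons. Nkx6-1, a homeodomain factor of the ventral neural tube, had H3K4me3 in NSCs alone, 27 reads over 7, and H3K27me3 in both. Nkx6-2 and Sox17 carried both marks in both cell types. Sox8 had H3K4me3 in both, and H3K27me3 in NSCs alone, with 61 reads over 32 in a peak 769 bp from its start site.

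Of 12 progenitor surface and signalling genes, 8 had H3K4me3 in each cell type. They included Pdgfa, of the ligand of Pdgfra, with 417 reads over 32 in NSCs and 83 over 12 in neurons. Erbb3, of a neuregulin receptor, had both marks in both cell types. Lpar1, of a lysophosphatidic acid receptor, had H3K27me3 in neurons alone, in a peak of 1400 bp with 30 reads over 7. Pcdh15 and S1pr5 had H3K27me3 in NSCs alone, with the nearest neuronal peaks 1891 and 1888 bp from the start site. Both would count as shared with a window of 2000 bp, as would Mobp below.

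Of the 8 scored myelin protein genes, H3K4me3 marked 4 in NSCs and 2 in neurons. Omg, of the oligodendrocyte myelin glycoprotein, was the only gene of the 35 with H3K4me3 in neurons alone, the pattern of Pdgfra, on 67 reads over 23, while the closest peak of NSCs was 8332 bp off. Mal, Cntn2 and Pmp22 had it in NSCs alone, as had 9.55% of all genes. The NSC H3K4me3 peaks of Mal and Cntn2 were small, with 26 reads over 5 and 60 over 27, and both genes carried H3K27me3 in both cell types. Nfasc, of the axon adhesion protein neurofascin, had both marks in both. Mobp, of another myelin basic protein, had the pattern of Mbp, with a 13400 bp H3K27me3 domain of 219 reads over 118 in NSCs and a neuronal peak 1140 bp from its start site. S1pr5 was the other gene with that pattern.

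Of 7 enzyme genes of myelin lipids and metabolism, 6 had H3K4me3 in both cell types, as had 60.8% of all genes. Gal3st1, whose sulfotransferase acts on the product of Ugt8a, had no mark in either. Fa2h, of the fatty acid hydroxylase of myelin lipids, had H3K4me3 in both and H3K27me3 in NSCs alone, 164 reads over 64, with the nearest neuronal peak 2276 bp away. Car2, of a carbonic anhydrase, had H3K27me3 in neurons alone, 39 reads over 22. None of the 35 genes shared the pattern of Ugt8a or of Cldn11. Markers of other cell types did share patterns of the members: the stem cell marker Sox1 that of Ugt8a, the astrocyte marker Aldh1l1 that of Cldn11, and the neuronal marker Dcx and the stem cell marker Pax6 that of Pdgfra. The pattern of Mbp was also that of Csf1r, Cdh5 and Pdgfrb, markers of microglia, endothelium and mural cells.

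**Figure D5:**
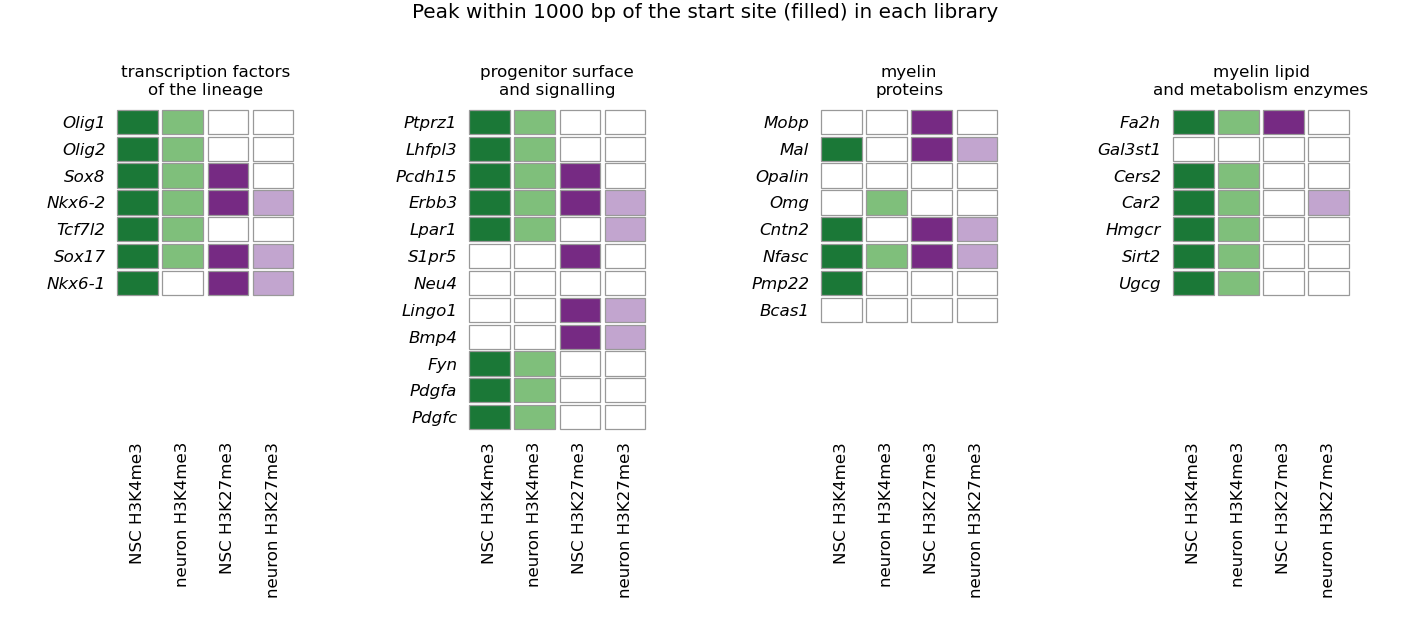
Filled squares stand for a listed peak at most 1000 bp from the start and open ones for none, in each of the 4 libraries, for the scored genes of the wider lists in their 4 groups by role, with 1 gene not drawn. H3K4me3 fills both columns for 6 of the 7 transcription factors drawn, 6 of 7 enzymes and, among the myelin protein genes, for Nfasc alone.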

How the data were processed

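Chromatin immunoprecipitation and sequencing of H3K4me3 and H3K27me3 gave 4 libraries, 1 per cell type and mark, beside 2 inputs. Per the submitters' processing notes, the tools were SICER, Bowtie, SAMtools and FastQC and the build was mm9. No source used here gives their versions or settings. For each library the authors deposited a peak list and a table pairing genes with peaks. Both hold deposited read counts per peak (immunoprecipitated and input), a fold over input (the ratio of the counts times a constant per library), and p-values with an FDR. A deposited score column was not used. The tables of 3 libraries hold peaks with an FDR under 1e-20, and that of neuron H3K4me3 peaks with an FDR under 0.001.

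From these, the distance from each of 18778 start sites to the nearest listed peak and the peak bases over each gene and 15 kb on either side were computed with Python 3.11.15, pandas 2.3.3, numpy 2.4.6 and scipy 1.17.1, and plotted with matplotlib 3.10.9. Both steps were tested on simulated data. Fold and rank describe a peak within its own list. Intervals are exact 95% (Poisson for reads, Clopper-Pearson for ratios) and cover counting error only. Absolute library totals, and reads outside peaks, are not known. The members and lists, markers included, were chosen with earlier results of these data known. All members are named, with genes of the wider lists that were marked in 1 cell type alone, some of those with both marks and those of like pattern. Of the wider lists, 1 gene (Cers2) was matched by an older symbol through a RefSeq table of GRCm38.p6. Pdgfa, Gal3st1, Dnajc7, Ttc25 and the marker genes were named after their values were seen. Of the wider lists, 1 scored gene is counted but not reported here by name. Alternatives were the window (500, 2000 and 5000 bp), the gene tables in place of the lists, stricter peaks and the flank.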

Additional observations from a re-analysis of the deposited data

How the results depend on the processing

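With 1 library per group, no replicate could be left out, and no paired analysis was possible because no group had a second library. Of the member calls under 7 alternatives, 129 stayed as reported, 10 were lost and 1 was added. Most of the calls compared were absences of a peak. A narrower window or fewer peaks cannot add a call, and a wider window cannot lose one. Many of the 129 were thus fixed in advance, and this number does not measure how stable the called peaks were. With a window of 500 bp, or a fold of at least 2, H3K4me3 in neurons alone held at 1 member, beside 0.751% and 0.756% of all genes. With 5000 bp it also held at 1 (1.45% of all genes), and H3K4me3 in NSCs at 2 members (74.8%). By the gene tables, H3K4me3 in neurons alone held at 1 member, beside 3.77% of all genes, where the NSC table has the stricter FDR limit. H3K27me3 in NSCs and in neurons held at 1 each, beside 7.74% and 5.09%. H3K27me3 in 1 cell type alone held at 0 in either direction, beside 1.77% in neurons alone and 4.43% in NSCs alone. At an FDR under 1e-20, H3K4me3 in neurons held at 0 members (40.0% of all genes) and H3K4me3 in neurons alone at 0 (0.186%). Both marks in neurons held at 0 (0.559%), as did H3K27me3 in neurons alone (1.93%) and in NSCs alone (5.38%). H3K4me3 in NSCs alone (26.6%), H3K27me3 in NSCs (13.1%) and H3K27me3 in neurons (9.65%) held at 1 member each. With 2000 bp or equal numbers of peaks every count of members stayed within 1.5 times. Equal numbers meant 14846 H3K4me3 and 26539 H3K27me3 peaks in each cell type, which left the neuron H3K4me3 and NSC H3K27me3 lists whole. Calls from those 2 lists, and H3K4me3 in neurons alone at Ugt8a and Pdgfra, could therefore not be lost in that setting.

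The covered shares that follow are of members alone, with no value over all genes under the same setting. Whether they moved relative to other genes was not tested. Cldn11 and Mbp were scored only through neuronal H3K27me3 peaks, which bears on their shares here too. The median covered share of the members was 2.51%, 0.905% and 0% for NSC H3K4me3 with a flank of 5 kb, with the gene body alone and at an FDR under 1e-20. For neuron H3K4me3 it was 2.16%, 1.46% and 0%, and for neuron H3K27me3 3.15% and 3.44% under the first 2 of these. The neuron minus NSC difference in H3K27me3 cover was 12.3, 13.6 and 6.58 points at Ugt8a and 53.5, 47.1 and 12.6 at Cldn11 under these 3. At Ugt8a it was 14.9 with equal numbers of peaks and 15.9 with a fold of at least 2, both chosen after seeing the data. So were the other scales for Cnp, where 23.8% of genes were lower with reads per peak, 0.525% with reads over input reads and 0.202% among genes of like NSC density. For Cnp, reads per peak take in the width of the peaks, which the report gives. The cause of the other shifts was not tested. Of the counts over the wider lists, 49 stayed within 1.5 times and 21 did not.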

Other observations

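The deposited gene tables and peak lists gave different peaks for 3 of the 5 members. For Cldn11 the neuron H3K27me3 table names a peak 9932 bp from the start site, while a listed peak lies over it. That peak has an FDR of 4.56e-18, and the table holds peaks with an FDR under 1e-20. For Mbp the same table names a peak 35862 bp away, while the nearest listed one is at 30339 bp, with an FDR of 2.56e-11. The NSC H3K27me3 peak over the Mbp start site has an FDR of 2.51e-17, and Mbp is not in that table. For Pdgfra the neuron H3K4me3 table, which has no such limit, names the upstream peak at 1962 bp and not the weaker one at 839 bp.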
